A study of Homo sapiens with 6 samples.

Results

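The CDK inhibitors and D-type cyclins are 10 genes: the CIP/KIP inhibitors CDKN1A, CDKN1B and CDKN1C, the INK4 inhibitors CDKN2A, CDKN2B, CDKN2C and CDKN2D, and the cyclins CCND1, CCND2 and CCND3. They were chosen by name from the 44591 genes listed, as a family selected on earlier fold changes of this same comparison, for example those of CDKN1A and CCND1. The choice of the 10 genes was therefore not independent of the comparison described here, so their values, and the thresholds they passed, are given as a description with no p-value. RNA came from A2780, a human ovarian cancer cell line labelled wild type and grown in DMEM with serum. Of its 6 libraries, 3 were from untreated cells and 3 from cells given 40 ng/ml of human recombinant CRMP2 (r-CRMP2) in the medium for 48 h. CRMP2 is a cytoplasmic protein known for its binding to tubulin in growing neurons, and the study asked what it does when it reaches ovarian cancer cells from fibroblasts. The data come from 1 cell line at 1 dose and 1 time, with untreated cells as the control.

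In the G1 phase, D-type cyclins bind and activate the kinases CDK4 and CDK6, which begin the phosphorylation of the retinoblastoma protein RB and so free E2F transcription factors to drive entry into S phase. INK4 proteins bind CDK4 and CDK6 and keep the cyclin away. CIP/KIP proteins bind cyclin and kinase together, block complexes that contain CDK2, and can also help D-type cyclins to assemble with their kinases. Both the inhibitors and the D-type cyclins are also set by protein turnover, which RNA does not show.

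All 10 members passed the filter on low counts, which left 16222 genes. Levels are given as CPM on the TMM scale (counts scaled to a common library total), which also corrects for composition, and fold changes are log2 values of r-CRMP2 over untreated with their standard error (SE). The thresholds were those of the study, an adjusted p of 0.05, here with edgeR's quasi-likelihood test, and a log2 fold change of 1. Of the 10 members, selected with this comparison in view, 5 were higher and 3 lower past the adjusted p threshold, where 28.2% of all genes tested were higher and 30.1% lower. Past both thresholds, 3 were higher and 1 lower, where the shares of all genes tested were 5.12% and 8.86%. With libraries scaled by their totals alone, 3 members were higher and 2 lower past both thresholds, CDKN2C being the added one. The shares of all genes past both thresholds were not counted under that scaling. It moved the median log2 fold change of all genes tested to -0.34. In 5 members the 3 r-CRMP2 libraries all lay above the 3 untreated ones, and in 3 members all lay below, where 30.9% and 33.3% of all genes tested did so. The median log2 fold change was 0.26 over the members and -0.026 over all genes tested. These shares stand beside the members as background, and nothing about the members is read from them.

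**Figure D1:**
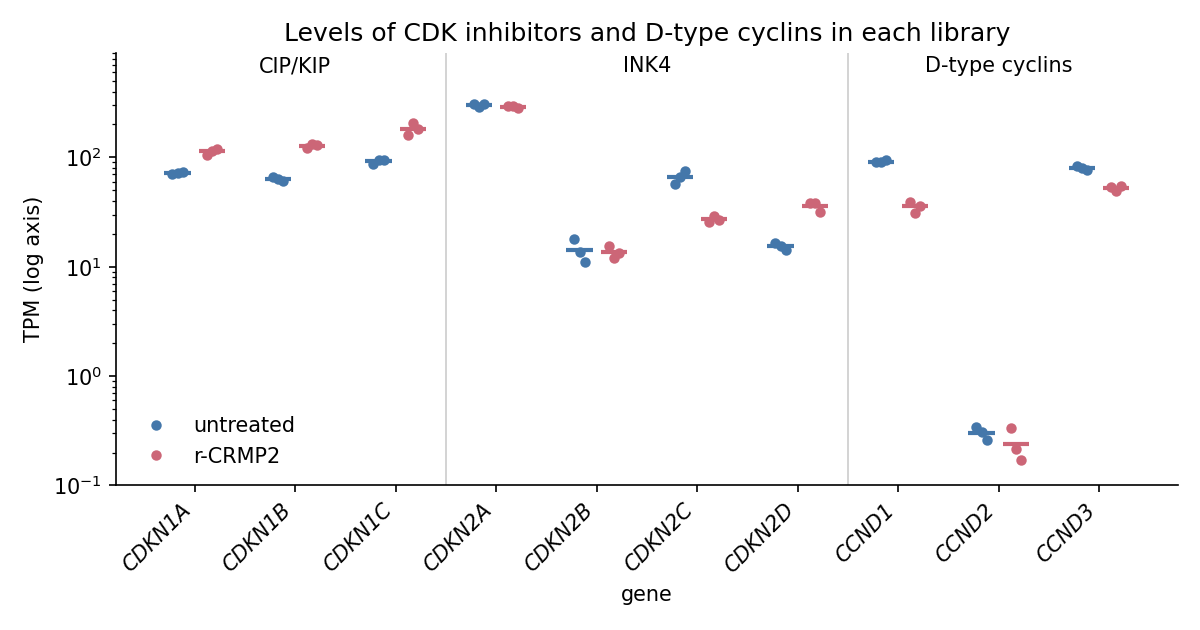
TPM, a level per length, of each member on a log axis in the 3 untreated (blue) and 3 r-CRMP2 (red) libraries, each point a library and each line a group mean. On this scale the groups overlap in CDKN2A, CDKN2B and CCND2, the CIP/KIP genes and CDKN2D are higher in all r-CRMP2 libraries, and CDKN2C, CCND1 and CCND3 are lower in all of them.

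All 3 CIP/KIP inhibitors were higher in r-CRMP2 cells, with a median log2 fold change of 1.33. CDKN1A encodes p21, the inhibitor known for halting the cell cycle after DNA damage (chromosome 6, 36644237 to 36655116, plus strand, in the deposited coordinates, for which the submitters' processing notes name hg19). Untreated libraries held it at 76.8, 76.9 and 79.7 CPM, and r-CRMP2 libraries at 138, 165 and 162 CPM. The group mean rose from 77.8 ± 1.66 to 154.6 ± 14.9 CPM (± SD over 3 libraries each, n = 3), for a log2 fold change of 0.99 (SE 0.08). The r-CRMP2 libraries spread more than the untreated ones, and replicate 1 was the lowest of them. CDKN1A thus lay just inside the fold change threshold, and without r-CRMP2 replicate 1 it was just beyond it, at 1.08. Without untreated replicate 3 it was also beyond the threshold, at 1.01.

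CDKN1B encodes p27, the CIP/KIP protein that holds CDK2 inactive in resting cells (chromosome 12, 12870204 to 12875317, plus strand). Its untreated libraries gave 70.2, 65.2 and 62.1 CPM, and its r-CRMP2 libraries 153, 179.5 and 168 CPM. The group mean rose from 65.8 ± 4.12 to 166.6 ± 13.5 CPM (± SD over 3 libraries each, n = 3), for a log2 fold change of 1.34 (SE 0.09). The lowest r-CRMP2 library was well above the highest untreated one. CDKN1C encodes p57, an imprinted inhibitor that acts in development and differentiation (chromosome 11, 2904448 to 2906995, minus strand). It gave 70.1, 74.4 and 74.0 CPM in untreated libraries and 153, 215 and 179.8 CPM in r-CRMP2 libraries. The group mean rose from 72.8 ± 2.41 to 182.6 ± 30.8 CPM (± SD over 3 libraries each, n = 3), for a log2 fold change of 1.33 (SE 0.14). The 3 r-CRMP2 libraries of CDKN1C were in the same order as those of CDKN1A, with replicate 1 lowest and replicate 2 highest.

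In the 4 INK4 genes the directions were mixed: CDKN2D and CDKN2A were higher past the adjusted p threshold, CDKN2C was lower, and CDKN2B did not pass. CDKN2D encodes p19, the INK4 protein whose amount is known to vary over the cell cycle (chromosome 19, 10677138 to 10679655, minus strand). It stood at 9.78, 8.96 and 8.26 CPM in untreated libraries and at 26.7, 29.5 and 22.9 CPM in r-CRMP2 libraries. The group mean rose from 9.002 ± 0.760 to 26.4 ± 3.34 CPM (± SD over 3 libraries each, n = 3), for a log2 fold change of 1.55 (SE 0.13), which was the largest rise among the members. Its raw counts were 220 to 272 per untreated library and 525 to 584 per r-CRMP2 library.

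CDKN2C encodes p18, a close relative of p19 (chromosome 1, 51434367 to 51440309, plus strand). It moved the other way, from 59.3, 66.1 and 75.7 CPM in untreated libraries to 31.3, 38.9 and 33.9 CPM in r-CRMP2 libraries. The group mean fell from 67.0 ± 8.25 to 34.7 ± 3.89 CPM (± SD over 3 libraries each, n = 3), for a log2 fold change of -0.95 (SE 0.14). Like CDKN1A, it lay just inside the fold change threshold, and it was beyond it at -1.03 without untreated replicate 1 and also without r-CRMP2 replicate 2. CDKN2D and CDKN2C thus moved in opposite directions. The ratio of their TPM (transcript abundance per length, scaled to a fixed total within a library) was 0.287, 0.236 and 0.190 in untreated libraries and 1.49, 1.32 and 1.17 in r-CRMP2 libraries. This ratio is formed within each library, so it does not depend on how libraries were scaled to each other. Its mean was 0.238 ± 0.0486 (SD, n = 3) in untreated and 1.33 ± 0.156 (SD, n = 3) in r-CRMP2 cells.

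CDKN2A encodes both p16, the founding INK4 inhibitor, and ARF, a protein read in another frame, and counts per gene cannot tell the transcripts apart (chromosome 9, 21967751 to 21994490, minus strand). It gave 269, 243 and 262 CPM in untreated libraries and 299.6, 335 and 302 CPM in r-CRMP2 libraries. Its log2 fold change was 0.27 (SE 0.07) on the TMM scale, past the adjusted p threshold, but -0.037 when libraries were scaled by their totals alone, so its direction rests on the scaling. In TPM, which carries no composition correction, the groups overlapped, with means of 302.6 ± 12.4 (SD, n = 3) in untreated and 291.7 ± 6.03 (SD, n = 3) in r-CRMP2 cells.

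CDKN2B encodes p15, an inhibitor known to respond to TGF-beta (chromosome 9, 22002902 to 22009312, minus strand). Its values were 29.5, 22.2 and 17.8 CPM in untreated libraries and 30.1, 25.8 and 27.1 CPM in r-CRMP2 libraries. The groups overlapped, because untreated replicate 1 was above 2 of the r-CRMP2 libraries. The log2 fold change of 0.25 (SE 0.22) did not pass the adjusted p threshold, and it was -0.052 with library totals alone. Without untreated replicate 1 the value was 0.47 and passed.

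Counts at the CDKN2A and CDKN2B locus are uncertain. CDKN2B-AS1, a long noncoding RNA, covers all 6411 bases of CDKN2B on the opposite strand in the deposited coordinates and begins 299 bases from CDKN2A. Whether the counting used strand is not given in the sources used here, and without strand, reads from CDKN2B and CDKN2B-AS1 could not be told apart. CDKN2B-AS1 had 454 counts over the 3 untreated and 276 over the 3 r-CRMP2 libraries, at a log2 fold change of -0.40 (SE 0.10), and edgeR's quasi-likelihood test gave it an adjusted p of 0.0295. In the GENCODE transcripts, CDKN2A and CDKN2B also share a stretch of 280 bases at 92.9% identity. The other listed genes that overlap a member on the opposite strand held between 0 and 12 counts per library, among them DINO, which overlaps 951 bases of CDKN1A, with 0 to 2.

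Of the D-type cyclins, CCND1 and CCND3 were lower past the adjusted p threshold, and CCND2 did not pass. CCND1 encodes cyclin D1, the D-type cyclin that responds most directly to growth factors in many epithelial cells (chromosome 11, 69455873 to 69469242, plus strand). It gave 162, 157 and 164 CPM in untreated libraries and 83.6, 72.0 and 79.1 CPM in r-CRMP2 libraries. The group mean fell from 161 ± 3.40 to 78.2 ± 5.86 CPM (± SD over 3 libraries each, n = 3), for a log2 fold change of -1.04 (SE 0.07). It was just beyond the fold change threshold, and at -0.98 it was inside it without r-CRMP2 replicate 2, the lowest library. ORAOV1, the next gene listed on the higher side of CCND1, at 11088 bases and on the opposite strand, had a log2 fold change of -1.13 (SE 0.12, edgeR's quasi-likelihood test with adjusted p = 2.07e-06). In the deposited positions ORAOV1 and CCND1 do not overlap. In the GENCODE transcripts, where ORAOV1 has the newer symbol LTO1, the genes share 258 bases at 99.6% identity on opposite strands. Without strand, reads from those bases could not be told apart if counted on those transcripts, which differ from the deposited positions.

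CCND3 encodes cyclin D3 (chromosome 6, 41902671 to 42016632, minus strand). Its untreated libraries gave 109.6, 103 and 98.9 CPM, and its r-CRMP2 libraries 83.6, 83.8 and 87.3 CPM. The group mean fell from 103.8 ± 5.42 to 84.9 ± 2.12 CPM (± SD over 3 libraries each, n = 3), for a log2 fold change of -0.29 (SE 0.05). The fall was smaller than that of CCND1, and the 3 r-CRMP2 libraries were close together. CCND2 encodes cyclin D2 (chromosome 12, 4382902 to 4414522, plus strand) and was near the floor of the assay, with 26, 20 and 19 raw counts in untreated and 23, 15 and 13 in r-CRMP2 libraries. Its log2 fold change was -0.031 (SE 0.27), and its groups overlapped.

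**Figure D2:**
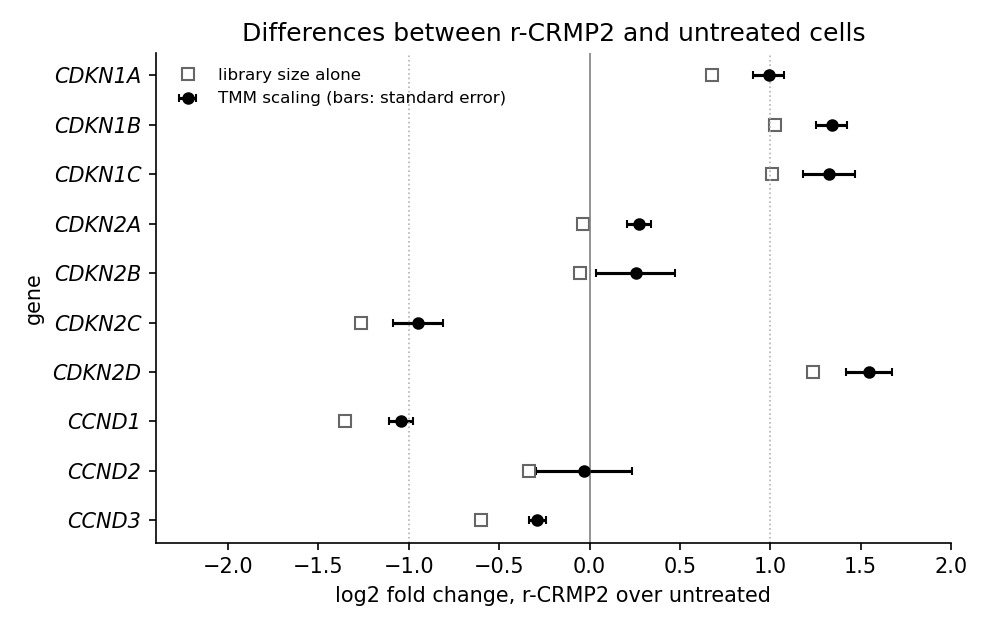
Log2 fold change of r-CRMP2 over untreated for each member, with TMM scaling (filled points, bars of 1 SE) and with library totals alone (open squares). Dotted lines mark a log2 fold change of 1 in either direction, and only CDKN2A and CDKN2B lie on different sides of 0 under these 2 scalings.

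Levels of different genes were compared in TPM. In untreated cells CDKN2A was the highest of the 10, at 302.6 ± 12.4 TPM (SD, n = 3), with 420 of the 44591 listed genes above it. CDKN1C followed at 92.0 ± 4.37 TPM and CCND1 at 91.5 ± 1.81 TPM, with overlapping ranges. Below them came CCND3 at 80.0 ± 3.30 TPM, which overlapped neither neighbour. CDKN1A at 71.9 ± 2.09, CDKN2C at 66.0 ± 8.69 and CDKN1B at 63.5 ± 3.27 TPM came next, and CDKN2C overlapped both of the others. CDKN2D at 15.4 ± 1.14 TPM and CDKN2B at 14.2 ± 3.42 TPM also overlapped, and CCND2 was last at 0.304 ± 0.0417 TPM (SD, n = 3 for each gene).

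In r-CRMP2 cells CDKN2A was still first, but all 3 CIP/KIP genes came next and stood above every D-type cyclin. CDKN1C was at 183 ± 22.4 TPM, CDKN1B at 128 ± 4.97 TPM and CDKN1A at 114 ± 7.50 TPM (SD, n = 3). CCND3 at 52.2 ± 2.88 TPM was above CCND1 at 35.6 ± 4.27 TPM, where in untreated cells the order was the reverse. CCND1 now overlapped CDKN2D at 35.9 ± 3.82 TPM. Below them were CDKN2C at 27.1 ± 1.75, CDKN2B at 13.6 ± 1.68 and CCND2 at 0.240 ± 0.0848 TPM (SD, n = 3).

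Summed over its 3 genes, CIP/KIP RNA was 227 ± 3.73 TPM (SD, n = 3) in untreated and 425 ± 32.6 TPM (SD, n = 3) in r-CRMP2 cells. The 3 D-type cyclins summed to 172 ± 1.81 TPM and 88.0 ± 6.96 TPM. The 4 INK4 genes summed to 398 ± 13.1 TPM and 368 ± 10.0 TPM, and CDKN2A alone made up 76.0 ± 1.09% and 79.2 ± 0.629% of those sums. TPM carries no composition correction, so how far these sums differ between groups, and for INK4 the direction, rests on the scaling. On the TMM scale CDKN2A, the largest part of the INK4 sum, was higher in r-CRMP2 cells, at a log2 fold change of 0.27. The ratio of CIP/KIP to D-type cyclin RNA was 1.29, 1.35 and 1.34 in untreated replicates 1 to 3 and 4.17, 5.64 and 4.79 in those with r-CRMP2. With the INK4 genes added to the inhibitors, the ratio was 3.60, 3.59 and 3.74 in untreated and 8.14, 10.3 and 8.73 in r-CRMP2 libraries. Both ratios were highest in r-CRMP2 replicate 2, the library with the most CDKN1C and the least CCND1. The ratios count RNA and give no measure of the proteins or their complexes.

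The make-up of the D-type cyclin RNA also differed. CCND1 held 53.3 ± 1.504% of the summed TPM of the 3 cyclins in untreated cells and 40.3 ± 1.83% in r-CRMP2 cells (SD, n = 3). CCND3 held 46.5 ± 1.48% and 59.4 ± 1.88%, and CCND2 0.177 ± 0.0225% and 0.271 ± 0.0851%. The ratio of CCND1 to CCND3 was 1.09, 1.13 and 1.22 in untreated libraries and 0.737, 0.633 and 0.668 in r-CRMP2 libraries. By TPM the leading cyclin was thus CCND1 in each untreated library and CCND3 in each r-CRMP2 library. As shares of raw counts, which favour the longer CCND1 transcript, CCND1 held 60.7% and 47.7%. In r-CRMP2 replicate 1 the raw counts of CCND1 and CCND3 were equal, at 1786 each.

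**Figure D3:**
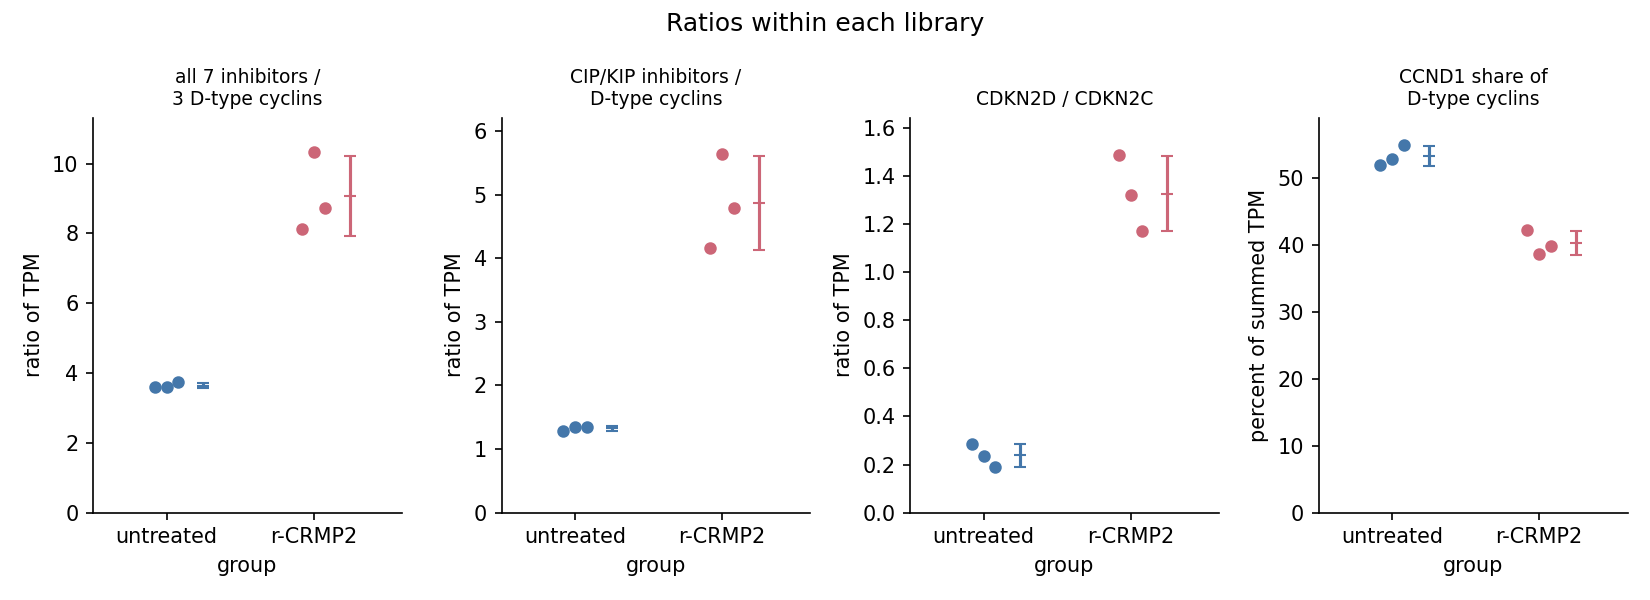
Quantities formed from TPM within each library, each point 1 of the 3 untreated (blue) or 3 r-CRMP2 (red) libraries, with the group mean and a bar of 1 SD beside the points. The panels give 3 ratios and the share of CCND1 in D-type cyclin TPM, in percent. The ratio of CIP/KIP inhibitors to D-type cyclins lies between 1.29 and 1.35 in untreated and between 4.17 and 5.64 in r-CRMP2 libraries.

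The promoters of 3 members that rose are shown because these genes rose together and the study's interest was HIF-1, a transcription factor that binds the hypoxia response element (HRE). Each sequence is the 250 bases before the RefSeq transcript start in GRCh38.p14, written 5′ to 3′ on the gene's strand, and these coordinates are not those of the deposited files. Capitals mark the HRE core, ACGTG or GCGTG, on either strand, so that CACGT and CACGC are its complements. CDKN1A was read from chr6:36678464-36678713 (plus strand), CDKN1B from chr12:12717118-12717367 (plus strand) and CDKN2D from chr19:10568980-10569229 (minus strand).
CDKN1A: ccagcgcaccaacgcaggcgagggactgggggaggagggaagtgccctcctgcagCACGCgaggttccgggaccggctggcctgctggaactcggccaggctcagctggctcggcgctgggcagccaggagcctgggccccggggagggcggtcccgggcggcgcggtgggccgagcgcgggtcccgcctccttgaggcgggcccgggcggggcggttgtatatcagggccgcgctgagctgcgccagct
CDKN1B: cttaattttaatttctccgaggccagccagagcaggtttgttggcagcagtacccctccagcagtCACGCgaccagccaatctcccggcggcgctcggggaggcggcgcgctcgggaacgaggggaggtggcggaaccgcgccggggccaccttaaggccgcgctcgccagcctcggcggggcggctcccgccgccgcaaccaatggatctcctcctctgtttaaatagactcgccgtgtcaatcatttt
CDKN2D: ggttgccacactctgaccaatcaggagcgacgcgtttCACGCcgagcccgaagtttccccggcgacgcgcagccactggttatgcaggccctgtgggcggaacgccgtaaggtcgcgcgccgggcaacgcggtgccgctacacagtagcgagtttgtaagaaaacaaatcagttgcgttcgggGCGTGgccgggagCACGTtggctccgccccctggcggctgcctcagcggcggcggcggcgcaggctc

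Matches that overlap each other were counted as 1. The HRE core occurred 1 time in the CDKN1A window, 195 bases before the start, 1 time in CDKN1B, at 185 bases, and 3 times in CDKN2D, at 213, 67 and 54 bases. Such short letters are common: 43.2% of 35097 windows of the same length held at least 1. The 35097 windows were not matched for GC content, which was 76.4% in the CDKN1A window, 64.4% in CDKN1B and 67.6% in CDKN2D. The GC box GGGCGG, the letters bound by SP1-type factors, occurred 3 times in CDKN1A, 1 time in CDKN1B and 2 times in CDKN2D, on either strand, and in 42.6% of all windows. CCAAT occurred 0, 2 and 1 times, and in 32.0% of all windows. No window of a member held the E2F-type letters TTTCGCGC or TTTGGCGC, found in 0.969% of all windows, or the forkhead letters GTAAACA, found in 2.98%. None of these motifs contains the letters of another. The table matched 7 of the 10 members, with 12 windows. CDKN2A had 1 HRE core in each of 2 windows, CDKN2C 2 in each of 3 windows, CCND3 1 in 1 of 3 windows, and CDKN2B none in its window. GC boxes numbered 5, 2 and 0 in the CCND3 windows, 0, 4 and 1 in CDKN2C, 0 and 1 in CDKN2A, and 2 in CDKN2B. CCAAT occurred 0, 1 and 1 times in CCND3, 0, 0 and 1 times in CDKN2C, and not in CDKN2A or CDKN2B. CDKN1C, CCND1 and CCND2 had no entry. A match is a description of letters and not a measured site.

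Partners and regulators of the members, and genes of proliferation, were compared in the same fit, with p-values adjusted over all 16222 genes. The lists, like the members, were chosen with earlier results of these data known, so their p-values are not those of independent tests. Past the adjusted p threshold on the TMM scale, 28.2% of all genes tested were higher and 30.1% lower. With library totals alone, 2171 of the 16222 genes tested were higher and 8449 lower. These are the backgrounds for the lists below, each for its own scaling. Of 16 G1 kinases and later cyclins, 10 were higher, 3 lower and 3 did not pass the adjusted p threshold, with a median log2 fold change of 0.35, and with library totals alone 5 were higher and 5 lower. WEE1, the kinase that restrains CDK1 and CDK2, was the one past both thresholds and rose from 83.2 ± 4.43 to 200.1 ± 3.38 CPM (± SD over 3 libraries each, n = 3). Its log2 fold change was 1.27 (SE 0.05, edgeR's quasi-likelihood test with adjusted p = 6.51e-12). CCNE2, a cyclin E that activates CDK2, was the largest fall, at -0.40 (SE 0.09, adjusted p = 0.000814). CDK2 and the partners of the D-type cyclins, CDK4 and CDK6, were named after their values were seen. The log2 fold change was 0.42 for CDK2 (SE 0.05, adjusted p = 1.12e-05) and -0.28 for CDK6, whose groups overlapped (SE 0.13, adjusted p = 0.00822). It was 0.21 for CDK4 (SE 0.07, adjusted p = 0.0120) on the TMM scale but -0.10 with library totals alone.

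Of 13 RB and E2F proteins, 3 were higher, 6 lower and 4 did not pass, with a median log2 fold change of -0.17, and with library totals alone 1 was higher and 10 lower. RBL2, the pocket protein p130 of resting cells, rose with a log2 fold change of 0.48 (SE 0.04, edgeR's quasi-likelihood test with adjusted p = 2.90e-06). E2F5, a partner of the pocket proteins in repression, fell from 3.31 to 1.64 CPM, with a log2 fold change of -1.02 (SE 0.27, adjusted p = 0.00107). RB1, named after its value was seen, was at 0.20 (SE 0.06, adjusted p = 0.0222) on the TMM scale and at -0.11 with library totals alone.

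Of 16 factors in the turnover of these proteins, 9 were higher, 4 lower and 3 did not pass, with a median log2 fold change of 0.20, and with library totals alone 4 were higher and 8 lower. CKS1B, which helps the SKP2 ligase to recognise p27, rose from 48.5 ± 1.89 to 105 ± 10.1 CPM (SD, n = 3), with a log2 fold change of 1.11 (SE 0.08, edgeR's quasi-likelihood test with adjusted p = 2.80e-10). SKP2 itself, named after its value was seen, was lower, at -0.28 (SE 0.06, adjusted p = 0.00113). FBXO4, a ligase subunit linked to cyclin D1, was the largest fall, at -0.43 (SE 0.21, adjusted p = 0.0196), although its groups overlapped.

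Of 26 known regulators of transcription of the members, 25 were tested, of which 16 were higher, 5 lower and 4 did not pass, with a median log2 fold change of 0.30. EGR1, an immediate early factor that responds to growth signals, fell from 109 ± 42.2 to 4.63 ± 1.84 CPM (SD, n = 3), with a log2 fold change of -4.55 (SE 0.47, edgeR's quasi-likelihood test with adjusted p = 3.43e-11). HES1, a Notch target that can repress inhibitor genes, rose by 2.64 (SE 0.32, adjusted p = 2.03e-10), from 6.43 to 39.98 CPM. BCL6, a repressor, rose by 1.42 (SE 0.07, adjusted p = 1.88e-11) and KLF6, an activator of CDKN1A, by 1.20 (SE 0.08, adjusted p = 8.11e-11), both on the log2 scale. FOXO3, an activator of CDKN1B, rose by 1.13 (SE 0.07, adjusted p = 1.31e-10) and was named after its value was seen. Of the other FOXO genes in the list, FOXO1 was at 0.57 (SE 0.14) and FOXO4 was lower, at -0.35 (SE 0.10). JUN, also past both thresholds, was at 1.16 (SE 0.42). These 3 were named in the same way. MYC, which acts on several of the members, was at 0.69 (SE 0.05, adjusted p = 1.83e-08) and was named in the same way. With library totals alone, 10 of the regulators were higher and 7 lower.

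Of 25 proliferation genes, 17 were higher, 3 lower and 5 did not pass, with a median log2 fold change of 0.29. Of all genes tested, 28.2% were higher and 30.1% lower. RRM2, the ribonucleotide reductase subunit that supplies nucleotides for DNA synthesis, rose from 225 to 475 CPM, with a log2 fold change of 1.08 (SE 0.10, edgeR's quasi-likelihood test with adjusted p = 4.47e-10). AURKB, a kinase of mitosis, rose from 55.9 to 117 CPM, at 1.07 (SE 0.08, adjusted p = 2.80e-10). With library totals alone, 10 proliferation genes were higher and 9 lower, where 2171 of the 16222 genes tested were higher and 8449 lower. Of the 75 genes of these lists that passed the adjusted p threshold, 16 had the opposite sign under at least 1 other scaling. CDK1 and E2F1 stand in 2 lists each. Over all genes tested, scaling by library totals alone moved the median log2 fold change from -0.026 to -0.34.

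**Figure D4:**
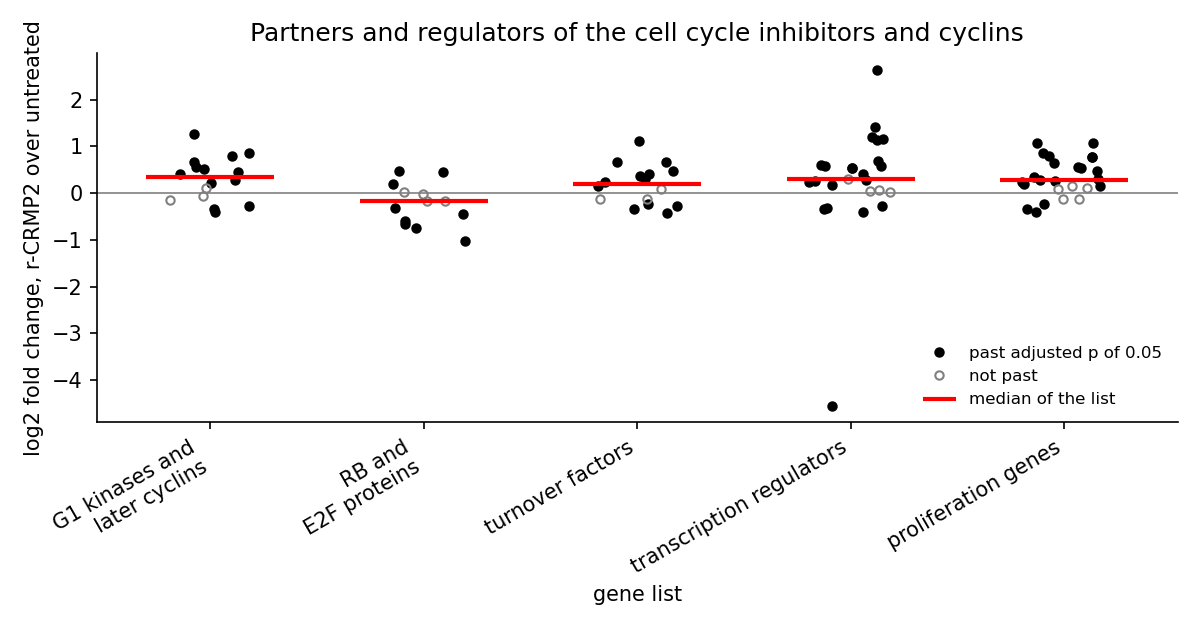
Log2 fold change on the TMM scale of each tested gene in the partner lists, 1 point a gene, with the list medians marked. Medians run from -0.17 for the RB and E2F proteins to 0.35 for the G1 kinases and later cyclins, against -0.026 over all genes tested, and with library totals alone the splits of higher and lower calls differ.

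Library totals were 21888530 to 25711353 counts, and the members took 0.0917% to 0.100% of them. TMM factors ran from 1.10 to 1.12 without r-CRMP2 and from 0.878 to 0.922 with it, so the groups differed in composition. Replicates differed by more than sampling noise (chi-square per degree of freedom of 3.62 to 10.3), and none was counted as a duplicate. The labels do not say that replicates were separate cultures, so p-values measure the spread between these libraries, which may be technical. In bulk RNA, fewer cells expressing a gene and less RNA per cell cannot be told apart. Of 9 epithelial markers, 7 averaged at least 1 TPM, including KRT8 and KRT18, while CDH1 and WT1 stayed below 0.1 TPM, and their summed level was 4202 to 4412 TPM in untreated and 3439 to 3769 TPM in r-CRMP2 libraries. Fibroblast markers (8 of 9 at 1 TPM or more) summed to 261 to 299 TPM and 188 to 202 TPM. Immune markers (2 of 5) summed to 31.1 to 36.1 and 79.3 to 80.1 TPM, mostly CD68 with PTPRC below 0.1 TPM, and endothelial markers (1 of 4) to 3.61 to 3.94 and 0.649 to 1.08 TPM. The part of these differences in the members' values was not tested.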

How the data were processed

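Polyadenylated RNA of 3 untreated and 3 r-CRMP2 libraries of A2780 cells was sequenced. Per the file headers, the authors deposited for each library the raw counts of reads on 44591 genes and TPM values, with gene positions and lengths. TPM recomputed from counts and lengths matched the deposited values within 4.72e-06. The submitters' processing notes name FastQC, HISAT2, DESeq2 and hg19. The counting tool, the annotation and the use of strand are not given in the sources used here, so overlapping and antisense genes may share reads.

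The quasi-likelihood test of edgeR (version 4.0.16, with limma 3.58.1 in R 4.3.3) was applied to the counts with TMM normalisation and the filterByExpr low-count filter. Adjusted p-values (Benjamini-Hochberg) cover all 16222 genes tested. SE was computed from replicate log2 CPM values (prior count 2). The members and lists were chosen with earlier results of these data known. Named were all 10 members, list genes past both thresholds (at most 4 a list) or otherwise the largest rise and fall, the 3 genes closest in profile to the members with the largest rise and fall (mean normalised count of at least 50), and neighbouring genes. CDK2, CDK4, CDK6, RB1, SKP2, FOXO1, FOXO3, FOXO4, JUN and MYC were added after their values were seen. Another gene and a gene list are not reported here.

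The 13 alternatives were DESeq2 (1.42.0), 3 scalings, 2 low-count filters, the replicate block and leaving out each of the 6 libraries. Deviations of same-numbered libraries had correlations of -0.021, 0.0038 and -0.025, so no pairing by number was seen. With 3 libraries a group this check cannot exclude a pairing, and the labels give only replicate numbers. Promoters were taken from RefSeq (GRCh38.p14).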

Additional observations from a re-analysis of the deposited data

How the results depend on the processing

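Of 130 values of the members under the 13 alternatives, 122 kept their direction and their side of the adjusted p threshold. With library size alone, the log2 fold change was -0.037 for CDKN2A and -0.052 for CDKN2B, where TMM gave 0.27 and 0.25. CDKN2B passed the threshold with no low-count filter (0.24), with the replicate block (0.28) and without untreated replicate 1 (0.47). CCND2 turned to 0.082 when untreated replicate 1 was left out, and to 0.011 and 0.18 when r-CRMP2 replicate 2 or 3 was, within a range of -0.29 to 0.18. CDKN1A was past both thresholds with DESeq2 and with RLE size factors (1.01 in each). Members past both thresholds and lower were 2 with library size alone, where CDKN2C was at -1.26, and 1 to 2 when 1 library was left out. Members past both thresholds and higher were then 3 to 4. The shares of all genes past both thresholds were not counted under the alternatives.

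Of 130 counts of partner genes under alternatives, 120 were within 1.5 times the reported count. With library size alone the counts higher and lower were 5 and 5 for G1 kinases and later cyclins, 1 and 10 for RB and E2F proteins, 4 and 8 for turnover factors and 10 and 9 for proliferation genes. There, 10 transcription regulators were higher. Of the 16222 genes tested, 2171 were higher and 8449 lower with that scaling. Upper-quartile factors gave 5 proliferation genes lower, where 5356 of the 16222 genes tested were lower. With library size alone the median log2 fold change of all genes tested was -0.34, against -0.026 with TMM. Why the groups differed in composition was not tested. As shares of counts rather than TPM, CCND1 held 60.7% in untreated and 47.7% in r-CRMP2 cells, CCND2 0.306% and 0.488%, and CCND3 39.0% and 51.8%.

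With the replicate block, 6 members were higher and 3 lower past the adjusted p threshold, against 5 and 3 without it, and no other member changed its call. Of the 16222 genes tested, 4456 were higher and 4774 lower with the block. Depth was lowest for CCND2, at 13 to 26 counts per library.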

Other observations

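The genes whose log2 CPM profile over the 6 libraries was closest to CDKN2D, among 12707 genes searched, were FAM72D, NDUFA4L2 and PRKAB2. Their distances were 0.059, 0.217 and 0.222 on the log2 scale, and their log2 fold changes 1.53, 1.54 and 1.52. FAM72D has near-identical copies, so its counts are uncertain. The genes closest to CCND1 were STEAP4, MAEA and CENPB, with distances of 0.073, 0.075 and 0.082 and log2 fold changes of -1.06, -1.09 and -1.06. A like profile over 6 libraries in 2 groups rests mostly on a like difference between the groups.

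Values of the protein-coding genes listed next to members were as follows. KRI1, 435 bases from CDKN2D on the same strand, had a log2 fold change of -0.58 where CDKN2D had 1.55. FAF1, 8430 bases from CDKN2C, had 0.53 where CDKN2C had -0.95. TIGAR, 15836 bases from CCND2, had -1.70 where CCND2 had -0.031. TAF8, beside CCND3, had -0.44 where CCND3 had -0.29. All 4 passed the adjusted p threshold of edgeR's quasi-likelihood test. BYSL, on the other side of CCND3, had -0.18, AP1M2, beside CDKN2D, -0.18 and SLC22A18AS, beside CDKN1C, -0.60, and none of these passed.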
